A study of Mus musculus with 10 samples.

Results

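Lysosomal enzymes other than cathepsins, their activator proteins and the proteins of the lysosomal membrane were followed across a mouse microglia RNA-seq series. The set was a list of 37 named genes, each found by its symbol among 24453 genes in the deposited table. By substrate and role it held 11 glycan hydrolases, 5 sulfatases, 6 lipid and acyl hydrolases, 3 activators and luminal cofactors, 1 peptidase with 2 phosphatases, 5 membrane glycoproteins and 4 membrane transporters and channels. Microglia, the resident macrophages of the brain, had been purified from C57bl6 mouse brains with magnetic beads. The 10 libraries formed 4 groups. Untreated mice aged 15 months gave 3 libraries, called aged here, and untreated mice aged 10 weeks gave 3, called young. Mice aged 3 months gave 2 libraries labelled Rab7 deltaMG, which the series describes as null mutants for Rab7, and 2 labelled Rab7 Control. The labels name no allele, promoter or Cre line for either of these groups and do not say whether replicates came from separate animals, so each p-value measures the spread between libraries, part of which may be technical.

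Lysosomal hydrolases are made in the secretory pathway, tagged with mannose phosphate and carried through endosomes into the acid lumen. Glycosidases and sulfatases there take sugar chains apart step by step, and activator proteins lift lipids out of membranes so that the lipid hydrolases can reach them. In microglia this system breaks down engulfed myelin, cell debris and synaptic material, and many of its genes carry promoter elements bound by the factors Tfeb, Tfe3 and Mitf. Rab7 is a small GTPase that acts in the fusion of late endosomes with lysosomes.

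Values were in RPM, with the reads of every library scaled to the same total. The size of a single read put the reads behind this scaling at 6098305 to 9907857, depending on the library. Most of these reads lay outside the 24453 genes. The share falling on them ran from 18.7% in aged replicate 2 to 23.5% in labelled deltaMG replicate 2. RPM therefore also depends on reads that cannot be examined here. Rab7 itself was at 64.2 and 67.5 RPM in labelled control and at 72.2 and 79.4 RPM in labelled deltaMG libraries (log2 fold change 0.20, limma adjusted p = 0.668), so it does not check these labels, and directions below rest on them. Cx3cr1, a chemokine receptor gene of microglia, was at 398 and 437 RPM in labelled control and at 965 and 1285 RPM in labelled deltaMG libraries (2.67-fold higher, limma adjusted p = 0.000158). It was at 1068 to 1174 RPM in young and 689 to 741 RPM in aged libraries, so for this gene the labelled control libraries lay below all others. Neither gene settles whether the labels are as given. Defining microglial markers were abundant in every library. The 12 marker genes summed to 5505 to 6103 RPM in young, 3640 to 4087 RPM in aged, 5086 and 5513 RPM in labelled control and 4659 and 5992 RPM in labelled deltaMG libraries. In aged libraries 6 of them were called lower by limma, P2ry12, Tmem119, Cx3cr1, Siglech, Sall1 and Gpr34, and none was called higher. Over all tested genes 2.99% were called lower and 3.16% higher in ageing. Markers of neutrophils (15 genes) summed to 600 to 1543 RPM in young, 1085 to 4611 RPM in aged, 499 and 745 RPM in labelled control and 1289 and 1988 RPM in labelled deltaMG libraries. Markers of monocytes (8 genes) took 79.9 to 201, 185 to 772, 59.2 to 95.2 and 165 to 221 RPM in the same order of groups. Markers of border macrophages (8 genes) took 27.3 to 32.1, 33.9 to 86.5, 39.1 to 48.8 and 50.1 to 50.9 RPM in that order. Those of astrocytes (7 genes) took 36.8 to 47.7, 28.1 to 39.8, 49.4 to 55.9 and 34.0 to 41.1 RPM. Most of this sum was Slc1a3, at 33.1 to 42.3, 22.7 to 30.8, 46.0 to 51.4 and 31.3 to 37.3 RPM. Oligodendrocyte markers (7 genes) took 18.6 to 27.1, 24.5 to 27.8, 19.0 to 22.9 and 19.4 to 22.3 RPM. Neuronal and T cell markers summed to at most 6.16 RPM in any library. Neuronal markers took 2.29 to 6.16 RPM in aged and 0.984 to 1.30 RPM in young libraries. All young libraries carried high Xist (1715 to 1771 RPM) and all aged libraries almost none (0.127 to 0.940 RPM), so age and sex cannot be told apart. The labelled control and labelled deltaMG libraries carried both Xist (924 to 1562 RPM) and reads of 4 Y-linked genes (9.11 to 25.8 RPM in sum, against 0 to 0.288 RPM in young), so sex also differs where they are set beside the young. Xist was at 1410 and 924 RPM in labelled control and at 1171 and 1562 RPM in labelled deltaMG libraries. The Y-linked sum was at 19.3 and 25.8 RPM and at 20.3 and 9.11 RPM, so this mix also varied among these libraries. In bulk RNA, fewer cells of a type and less RNA per cell cannot be told apart either.

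The 37 genes covered a wide range of levels. Per kilobase of merged exons, a rough basis for comparing genes, the saposin precursor Psap was highest in young libraries at 86.3 RPM per kb. Merged exons join those of all annotated transcripts of a gene, and the transcripts present here may be shorter. The membrane glycoproteins Lamp1 and Laptm5, a protein of blood-derived cells, followed at 84.1 and 82.8, with Cd68, a macrophage glycoprotein, at 62.6 and progranulin (Grn) at 55.2 RPM per kb. Arsb, the arylsulfatase that acts on dermatan sulfate, was the highest enzyme at 29.8 RPM per kb, followed by acid ceramidase Asah1 at 24.6 and the hexosaminidase subunit Hexa at 22.5. The lowest level per kb was that of Acp5, tartrate-resistant acid phosphatase, at 0.0269 RPM per kb in young libraries. The calcium channel Mcoln1 was next at 0.347 and galactosylceramidase Galc followed at 0.499 RPM per kb. Galc had a mean of 7.42 RPM in young libraries over 14.9 kb of merged exons, so its place depends on that length. In the libraries labelled control the order at the top changed, with Lamp1 at 171 and Psap at 117 RPM per kb.

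**Figure D1:**
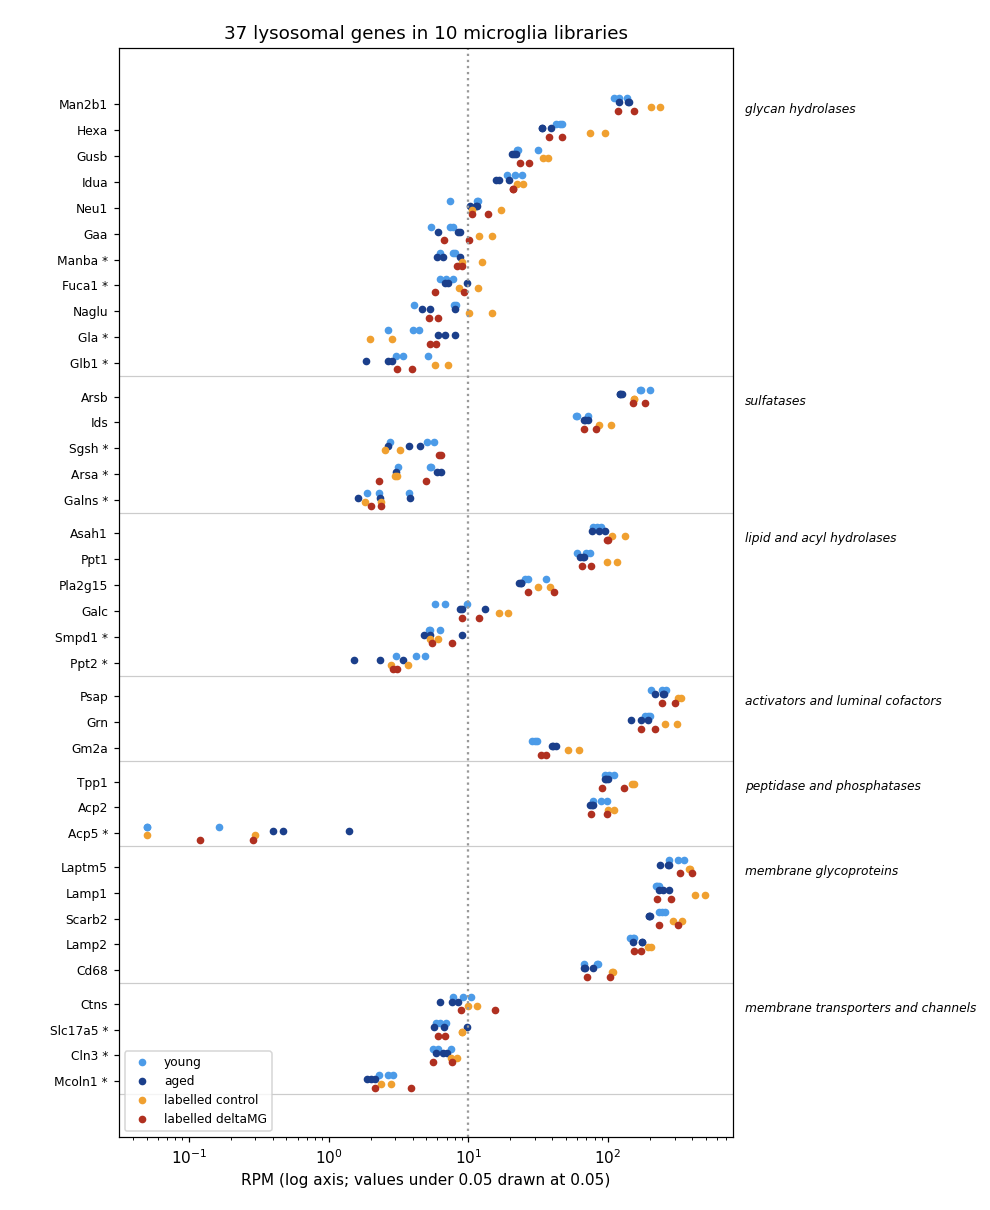
RPM (log axis) of the 37 genes in each of the 10 libraries, 1 point a library, grouped by class; an asterisk marks a gene under the filter of 10 RPM in at least 2 libraries, and the dotted line is at 10 RPM. Points of the libraries labelled control lie to the right of the other groups for most abundant genes, such as Lamp1 at 421 and 491 RPM, but not for Arsb at 153 RPM.

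The letters of the start regions were examined because Tfeb-type factors bind CACGTG, the core of the lysosomal promoter element known as CLEAR. RefSeq promoter windows (GRCm38.p6, 250 bases before to 50 after the start) were found for 35 of the 37 genes. CACGTG, which reads the same on both strands, was present in 8 of these 35 (22.9%), against 7.24% of 27025 windows of the same length. The longer TCACGTGA, which contains it, was in 2 of 35 (5.71%), against 272 of the 27025. Among windows of the other lysosomal genes listed further below, CACGTG was in 13 of 52 (25%) and TCACGTGA in 8 of 52 (15.4%). The windows of 4 genes are shown, since Lamp1, Hexa and Gm2a fell in the libraries labelled deltaMG, and Gla, under the filter, had higher values there without overlap. Capitals mark CACGTG, or TCACGTGA where the longer form is present.

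Lamp1 (chr8:13158911-13159210, plus strand): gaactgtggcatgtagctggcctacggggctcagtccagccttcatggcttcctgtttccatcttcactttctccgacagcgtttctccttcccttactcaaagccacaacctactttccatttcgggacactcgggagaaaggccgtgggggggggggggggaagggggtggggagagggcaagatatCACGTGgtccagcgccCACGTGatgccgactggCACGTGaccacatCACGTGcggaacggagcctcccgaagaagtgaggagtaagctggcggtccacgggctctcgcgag
Hexa (chr9:59539290-59539589, plus strand): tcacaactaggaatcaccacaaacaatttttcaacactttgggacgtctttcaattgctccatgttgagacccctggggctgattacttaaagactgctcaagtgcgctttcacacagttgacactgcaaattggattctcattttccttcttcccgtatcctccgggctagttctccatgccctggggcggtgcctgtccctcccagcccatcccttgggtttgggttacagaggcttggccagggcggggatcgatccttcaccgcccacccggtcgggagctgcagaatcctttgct
Gm2a (chr11:55097735-55098034, plus strand): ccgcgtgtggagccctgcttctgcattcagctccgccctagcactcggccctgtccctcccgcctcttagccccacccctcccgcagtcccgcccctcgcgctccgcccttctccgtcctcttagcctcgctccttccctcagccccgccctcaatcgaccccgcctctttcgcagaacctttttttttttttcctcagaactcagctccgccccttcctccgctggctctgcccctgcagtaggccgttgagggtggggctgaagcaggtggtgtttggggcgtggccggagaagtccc
Gla (chrX:134600956-134601255, minus strand): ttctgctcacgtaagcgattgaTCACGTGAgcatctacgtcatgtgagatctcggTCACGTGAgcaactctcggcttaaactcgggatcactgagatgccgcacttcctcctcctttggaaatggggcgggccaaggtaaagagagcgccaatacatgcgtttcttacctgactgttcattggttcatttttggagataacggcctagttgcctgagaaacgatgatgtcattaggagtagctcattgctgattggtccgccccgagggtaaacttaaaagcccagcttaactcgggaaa

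The Lamp1 window held 4 copies of CACGTG, starting at -61, -45, -28 and -15 from the start, more than any other window of the set. Gla held 2 copies of the longer form, with CACGTG at -227 and -194, and Mcoln1 held 1 of each form. Single copies of CACGTG lay in the windows of Gaa, Glb1, Naglu, Sgsh and Arsa. The windows of Hexa and Gm2a held none of these letters. Among the 5 genes called lower in the libraries labelled deltaMG, Lamp1 was the only one with a match. CACGTG was in 2 of 18 windows of tested genes without that call and in 5 of 12 windows of genes under the filter. Matches are a description of the letters and show no binding.

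The first comparison asked how these genes differ between the libraries labelled Rab7 deltaMG and Rab7 Control. Lamp1, Hexa, the ganglioside activator Gm2a, the mannosidase Man2b1 and the thioesterase Ppt1 were lower in the libraries labelled deltaMG, by 1.53-fold to 1.97-fold. No member was called higher. With n = 2 a group, the 37 genes summed to 3385 RPM ± 253 (SD) in labelled control libraries and 2619 RPM ± 417 (SD) in those labelled deltaMG.

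Of the 37 genes, 24 reached 10 RPM in at least 2 libraries and were tested within a limma fit over 4151 genes. At an adjusted p under 0.05, 5 of the 24 were called, all lower, where 3.78% of all tested genes were called, 2.58% lower and 1.20% higher. At an unadjusted p under 0.05 there were 12 of 24, against 18.8% of all tested genes. The median log2 fold change was -0.34 over the 24 genes and -0.02 over all tested genes, and 22 of the 24 fold changes were negative. Naglu, the glucosaminidase of heparan sulfate breakdown, passed the filter only through the libraries labelled control, so that its difference was partly set by the filter. Gaa reached 10 RPM in 3 libraries, the 2 labelled control and labelled deltaMG replicate 2. It would therefore not have passed without the libraries labelled control. Naglu and Gaa are both counted among the 12 and the 22 above. Both enter the median over the 24 genes and the medians of their groups below. Values of both groups did not overlap for 18 of the 24 genes, all lower, against 26.6% of tested genes lower and 25.2% higher. Without Naglu this was 17 of 23, with Gaa still counted.

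Among glycan hydrolases, Hexa showed the largest called change. Hexa (chromosome 9, 59539540 to 59565109, plus strand, GRCm38) encodes the alpha subunit of hexosaminidase, which trims gangliosides. It was at 95.7 and 74.2 RPM in labelled control libraries and at 37.9 and 47.0 RPM in labelled deltaMG libraries. Young libraries had 42.5, 45.6 and 46.6 RPM and aged libraries 33.8, 33.8 and 39.4 RPM. Only the libraries labelled control stood high, and the others lay between 33.8 and 47.0 RPM, with all aged below all young libraries. The fall was 1.97-fold (log2 fold change -0.98, SE 0.17, limma adjusted p = 0.00360).

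Man2b1 (chromosome 8, 85083270 to 85098282, plus strand), the acid alpha-mannosidase that trims glycoprotein sugar chains, was the most abundant glycan hydrolase by RPM. Its values were 235 and 202 RPM in labelled control, 117 and 154 RPM in labelled deltaMG, 136, 119 and 111 RPM in young and 120, 138 and 142 RPM in aged libraries. Labelled deltaMG libraries thus fell within or near the range of the young, and labelled control libraries were above all others. The log2 fold change was -0.69 (SE 0.16, limma adjusted p = 0.0331).

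The other 5 tested glycan hydrolases had negative log2 fold changes that did not pass the test. Naglu was at -1.0 (95% interval -1.74 to -0.26), the glycogen-splitting glucosidase Gaa at -0.62 (-1.22 to -0.01) and the glucuronidase Gusb at -0.50 (-0.90 to -0.10). The iduronidase Idua was at -0.17 (-0.56 to 0.22) and the sialidase Neu1 at -0.15 (-0.73 to 0.43). Their limma adjusted p-values ranged from 0.126 for Naglu to 0.842 for Neu1. The class median was -0.62, the value of Gaa, with Naglu and Gaa included, and 2 of 7 tested members were called.

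Neither of the 2 tested sulfatases was called. Arsb was at 153 and 153 RPM in labelled control and 150 and 182 RPM in labelled deltaMG libraries, with overlapping ranges and a log2 fold change of 0.11 (95% interval -0.19 to 0.41, limma adjusted p = 0.744). Ids, the iduronate sulfatase encoded on chromosome X, was at 104 and 86.4 RPM in labelled control and 67.6 and 81.9 RPM in labelled deltaMG libraries. Its log2 fold change was -0.35 (-0.69 to -0.01, limma adjusted p = 0.254). Whether sulfatases differ from glycan hydrolases in this comparison was not tested.

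Among lipid and acyl hydrolases 1 of 4 tested genes fell, Ppt1 (chromosome 4, 122836242 to 122859175, plus strand), which removes palmitate from proteins. Ppt1 was at 117 and 98.3 RPM in labelled control and at 64.6 and 75.2 RPM in labelled deltaMG libraries. It was at 74.4, 69.1 and 60.1 RPM in young and at 66.3, 63.3 and 67.5 RPM in aged libraries, so labelled control again stood alone. The log2 fold change was -0.61 (SE 0.15, limma adjusted p = 0.0424), the closest of the calls to the threshold. Galc, which cleaves the myelin lipid galactosylceramide, was at 19.2 and 16.5 against 9.08 and 12 RPM (log2 fold change -0.71, limma adjusted p = 0.169). Asah1 (-0.26, adjusted p = 0.390) and the phospholipase Pla2g15 (-0.07, adjusted p = 0.913) did not pass in limma either.

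Of the 3 activators and cofactors, Gm2a fell. Gm2a (chromosome 11, 55098115 to 55113029, plus strand) encodes the protein that presents ganglioside to hexosaminidase. Its values were 62.3 and 51.8 RPM in labelled control and 33.2 and 36.0 RPM in labelled deltaMG libraries, without overlap. The log2 fold change was -0.70 (SE 0.15, limma adjusted p = 0.0193). Grn was at 311 and 257 RPM in labelled control and at 172 and 218 RPM in labelled deltaMG libraries, which did not overlap either. Grn was the nearest gene outside the threshold, at a log2 fold change of -0.54 (limma adjusted p = 0.0889). Psap, the highest gene per kb in young libraries, was at 314 and 330 against 242 and 303 RPM, a log2 fold change of -0.25 (95% interval -0.59 to 0.09, limma adjusted p = 0.435).

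Tpp1, a peptidase that removes tripeptides, was at 153 and 148 RPM in labelled control and at 90.4 and 130 RPM in labelled deltaMG libraries. It was at 110, 95.4 and 102 RPM in young and at 101, 94.6 and 96.3 RPM in aged libraries. Its log2 fold change was -0.47 (limma adjusted p = 0.127), and that of the acid phosphatase Acp2 was -0.28 (adjusted p = 0.383). Neither passed the test.

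Membrane glycoproteins were led by Lamp1 (chromosome 8, 13159161 to 13175338, plus strand), the most abundant gene of the set in the libraries labelled control. Lamp1 and its relative Lamp2 coat the inner face of the lysosomal membrane. Lamp1 was at 491 and 421 RPM in labelled control and at 224 and 280 RPM in labelled deltaMG libraries. Young libraries had 224, 230 and 221 RPM and aged libraries 249, 233 and 271 RPM. The log2 fold change was -0.86 (SE 0.15, limma adjusted p = 0.00355). Lamp2, on chromosome X, was at 201 and 195 against 154 and 173 RPM, and its log2 fold change of -0.27 (95% interval -0.56 to 0.02) did not pass (limma adjusted p = 0.30).

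The ratio of Lamp1 to Lamp2 within a library does not depend on how the library was scaled. It was 2.44 and 2.16 in the libraries labelled control and 1.45 and 1.61 in those labelled deltaMG. Young libraries had 1.56, 1.52 and 1.43 and aged libraries 1.43, 1.55 and 1.55, so the 8 libraries outside the labelled control group lay between 1.43 and 1.61. This pair and the next were chosen after their values were seen, and no test was made. For Gm2a to Psap, both lipid activators, the ratio was 0.198 and 0.157 in labelled control and 0.137 and 0.119 in labelled deltaMG libraries, with 0.118 to 0.140 in young and 0.160 to 0.182 in aged libraries.

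Cd68 (-0.34, limma adjusted p = 0.334), Scarb2 (-0.21, adjusted p = 0.534), which carries glucocerebrosidase to lysosomes, and Laptm5 (-0.08, adjusted p = 0.847) were not called. Among transporters and channels the cystine exporter Ctns was the 1 gene tested, at 11.6 and 9.87 against 8.84 and 15.6 RPM. It was at 7.72, 10.5 and 9.21 RPM in young and at 6.27, 7.67 and 8.38 RPM in aged libraries. The ranges of labelled control and labelled deltaMG overlapped and the log2 fold change was 0.13 (95% interval -0.46 to 0.72, limma adjusted p = 0.870).

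**Figure D2:**
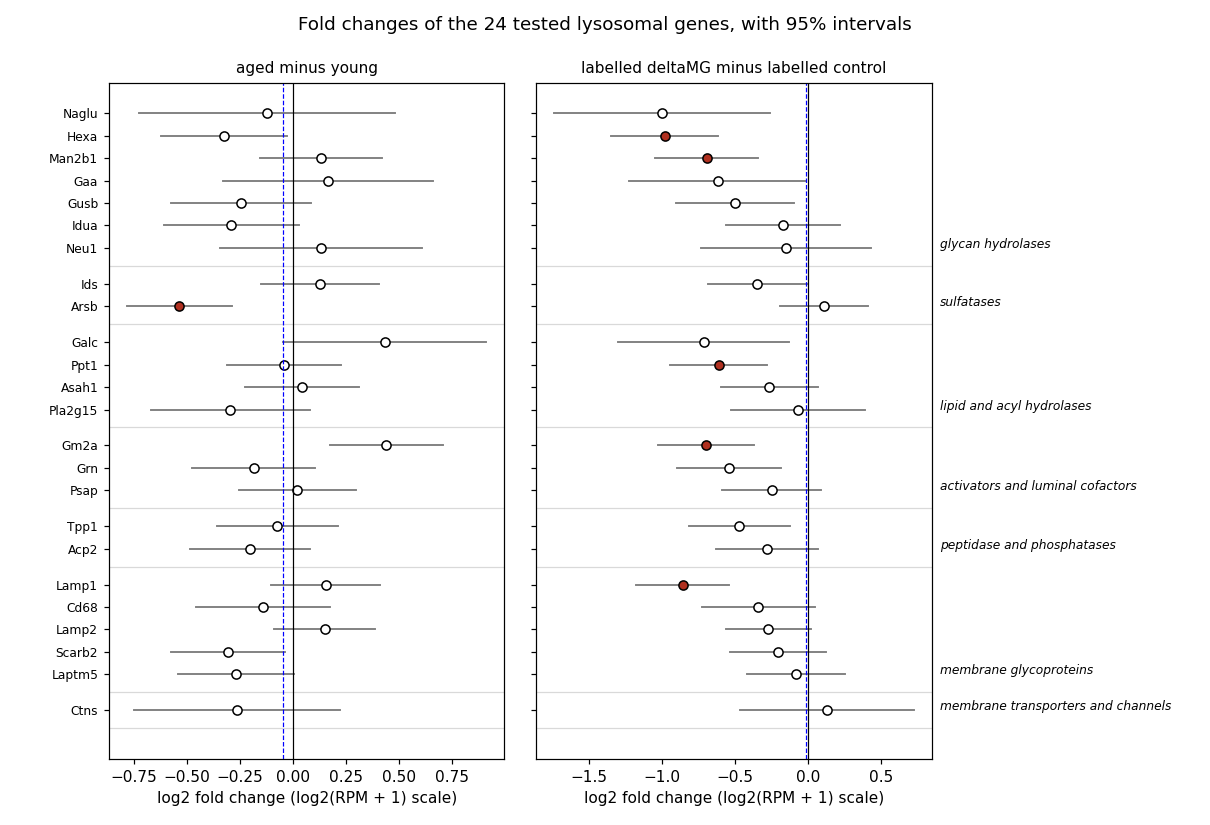
Log2 fold changes on the log2(RPM + 1) scale of the 24 tested genes with their 95% intervals, aged minus young on the left and labelled deltaMG minus labelled control on the right; filled points passed a limma adjusted p under 0.05 and the dashed line is the median of all tested genes. On the right 22 of 24 points lie below 0 and 5 are filled; on the left 1 is filled, Arsb.

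Calls in this comparison leaned on single libraries. Without labelled control replicate 1 none of the 23 members then tested was called, and 0.543% of all genes were, and without labelled deltaMG replicate 1 none of 24 was called, with 1.44% of all genes. Without labelled control replicate 2 the count was 3. In these fits the lone library of a group was assumed to vary like the others. Every called gene kept a negative fold change in every alternative fit. For Hexa the log2 fold change ranged from -1.16 to -0.80 over 24 fits, 22 of them called, for Lamp1 from -1.02 to -0.70 over 25 fits, 23 called, and for Ppt1 from -0.73 to -0.45, 13 of 25 called. Neutrophil markers were higher in the libraries labelled deltaMG. With a score of these markers as a covariate, 4 of the 5 genes were called, and Gm2a was not (-0.71, limma adjusted p = 0.0511).

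Levels were also set beside those of the ageing experiment, whose young mice were of similar age. The mean was highest of the 4 groups in the libraries labelled control for 27 of the 37 genes, those under the filter included. This count was not made over all tested genes, so it has no share to be read against. Both labelled control libraries lay above all 3 young libraries for 19 of the 24 tested genes, against 30.5% of tested genes. Without Naglu this was 18 of 23, with Gaa still counted. They lay below for Arsb, against 12.5%. Both labelled deltaMG libraries lay above the young for 3 of 24, namely Asah1, Gm2a and Lamp2, against 21.2%, and below for none, against 6.24%. These counts share the labelled control libraries with the comparison above, and no test was made, because experiment and group cannot be told apart here. Labelled control replicate 1 was above replicate 2 for 33 of the 37 genes (70.2% of all tested genes), and labelled deltaMG replicate 1 was below replicate 2 for 32 (71.1%). Microglial markers summed to 5513 and 5086 RPM in labelled control replicates 1 and 2, and to 4659 and 5992 RPM in labelled deltaMG replicates 1 and 2.

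**Figure D3:**
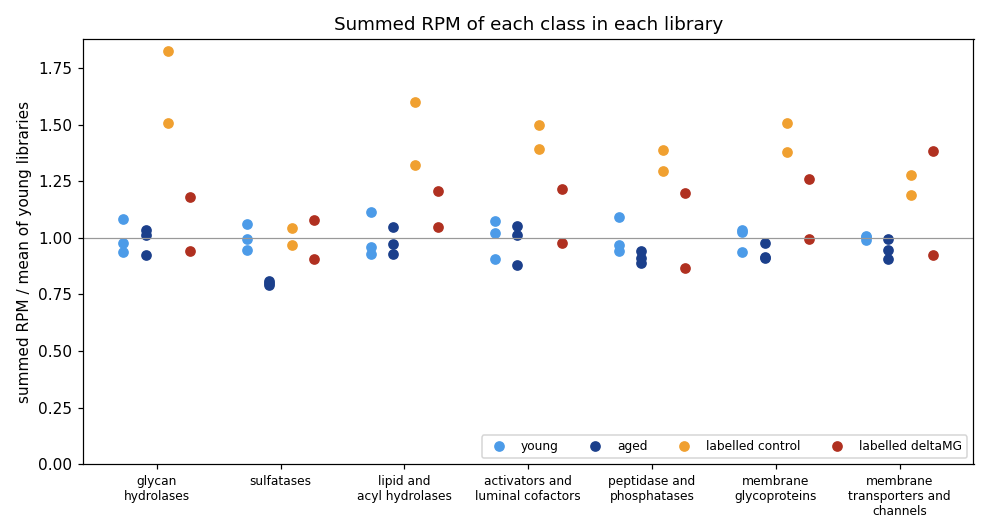
Summed RPM of each class in each library (1 point a library), divided by the mean of the 3 young libraries, on an axis that starts at 0. Labelled control libraries are at 1.83 and 1.51 for glycan hydrolases and at 1.04 and 0.970 for sulfatases, while aged libraries are at 0.791 to 0.809 for sulfatases, a sum made up mostly of Arsb and Ids.

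The second comparison asked how the same genes differ between aged and young mice. Arsb was lower in aged libraries, and no other member passed the test. Of the 24 tested genes 1 was called, against 6.14% of all tested genes (2.99% lower, 3.16% higher), and 4 had an unadjusted p under 0.05, against 21.5%. The median log2 fold change was -0.10 over the 24 genes and -0.05 over all tested genes. Summed RPM over all 37 genes was 2397 ± 147 in young and 2247 ± 82.5 in aged libraries (SD, n = 3 each).

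Arsb (chromosome 13, 93771630 to 93943016, plus strand) was at 198, 169 and 172 RPM in young and at 122, 122 and 126 RPM in aged libraries. All aged libraries lay below all young ones, and below the 150 to 182 RPM of the other 4 libraries. The fall was 1.45-fold (log2 fold change -0.54, SE 0.12, limma adjusted p = 0.0149). It lost the call without young replicate 1 (-0.46, limma adjusted p = 0.0890). The microglial marker sum was also lower in every aged than in every young library, and with libraries scaled to these markers the log2 fold change of Arsb turned to 0.055 (limma adjusted p = 0.680), with the median of all genes at 0.52. Of its merged exon bases, 39.9% are shared with genes on the opposite strand, and no strand setting is given, so reads of these cannot be separated from its own. Ids, the other abundant sulfatase, was at 60.2, 58.7 and 71.5 RPM in young and 68.1, 71.7 and 67.7 RPM in aged libraries (log2 fold change 0.13, 95% interval -0.15 to 0.40).

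Gm2a lay just outside the threshold. It was at 30.9, 29.8 and 28.5 RPM in young and at 39.8, 42.1 and 40.1 RPM in aged libraries, without overlap and with little spread in either group. Its log2 fold change was 0.44 (SE 0.12, limma adjusted p = 0.0509). It was called in 6 of 24 alternative fits, among them the median-of-ratios scaling (0.47, adjusted p = 0.0264 in limma). Psap was at 261, 245 and 204 RPM in young and 218, 248 and 251 RPM in aged libraries and overlapped.

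Scarb2 was at 243, 255 and 233 RPM in young and 196, 200 and 195 RPM in aged libraries, also without overlap (log2 fold change -0.31, limma adjusted p = 0.171). Hexa had a log2 fold change of -0.33 (adjusted p = 0.183) and Laptm5 of -0.27 (adjusted p = 0.236) in the same limma fit. Lamp1 (0.15, 95% interval -0.10 to 0.41) and Lamp2 (0.15, -0.09 to 0.39) had small positive values that did not pass. Among the 24 tested genes 6 were lower and 2 higher in aged libraries with no overlap, against 15.5% and 8.41% of all tested genes. Neutrophil and monocyte markers were highest in aged replicate 3. Arsb was still the 1 member called with the neutrophil score as a covariate (-0.53, limma adjusted p = 0.0379) and without that library (-0.55, limma adjusted p = 0.0258).

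**Figure D4:**
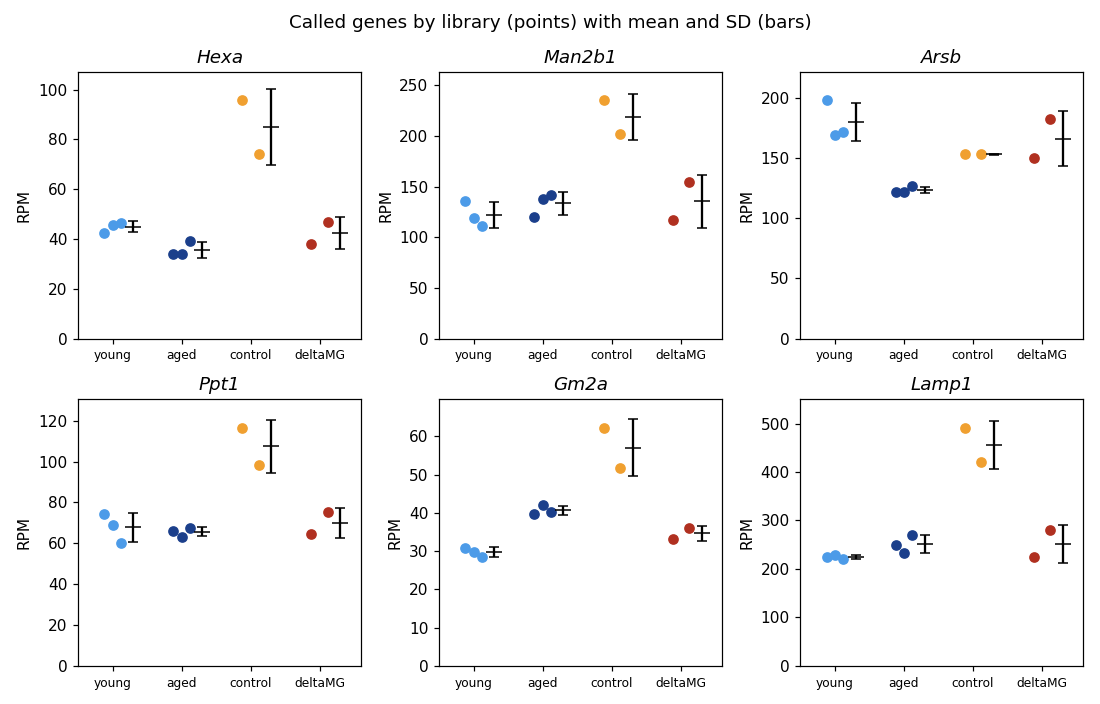
RPM of the 6 genes called in either comparison, 1 point a library, with the group mean and SD beside the points on axes that start at 0. For Hexa, Man2b1, Ppt1, Gm2a and Lamp1 both labelled control libraries lie above every other library; for Arsb the 3 aged libraries lie lowest, at 122 to 126 RPM.

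The 2 comparisons were then set against each other by testing the difference of their fold changes. Of the 24 genes, 3 were called, all with a more negative change in the comparison of labelled deltaMG with labelled control, against 4.79% of all tested genes, 2.67% in that direction. The difference of log2 fold changes was -1.14 for Gm2a (95% interval -1.56 to -0.72, limma adjusted p = 0.00336). It was -1.0 for Lamp1 (-1.42 to -0.60, adjusted p = 0.00581 in limma) and -0.82 for Man2b1 (-1.28 to -0.37, adjusted p = 0.0388 in limma). Arsb lay just outside in the other direction, at 0.65 (0.26 to 1.04, limma adjusted p = 0.0576). Gm2a kept the call in all 23 alternative fits, Lamp1 in 22 of 24 and Man2b1 in 15 of 24.

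A second grouping followed the substrate rather than the enzyme class. Of 9 genes of glycosaminoglycan breakdown 6 were tested. In aged libraries 1 fell, Arsb, with a median log2 fold change of -0.27. In the libraries labelled deltaMG 1 fell, Hexa, with a median of -0.42, Naglu included. Of 10 genes of sphingolipid breakdown 6 were tested, of which none was called by limma in aged libraries (median log2 fold change 0.09) and 2, Hexa and Gm2a, fell in the libraries labelled deltaMG (median -0.48). Over all tested genes 2.99% were called lower in ageing and 2.58% in labelled deltaMG minus labelled control, with medians of -0.05 and -0.02. The groups share Hexa and Glb1, so they are not independent, and their calls are those already given above.

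The 13 genes under the filter were measured at 0 to 12.5 RPM, from the few reads of Acp5 upwards. Gla, the alpha-galactosidase encoded on chromosome X, was at 2.82 and 1.97 RPM (19 and 14 estimated reads) in labelled control and at 5.85 and 5.35 RPM (49 and 37 reads) in labelled deltaMG libraries. It was at 2.68, 4.43 and 4.03 RPM in young and at 6.11, 6.86 and 8.0 RPM in aged libraries, so that it stood higher without overlap in both comparisons. Sgsh, the sulfamidase of heparan sulfate, was at 3.27 and 2.54 RPM in labelled control and at 6.20 and 6.36 RPM in labelled deltaMG libraries. Of its exon bases 21.6% are shared with Card14 on the other strand, which had at most 0.176 RPM. With a filter of 1 RPM the log2 fold changes in labelled deltaMG minus labelled control were 0.97 for Gla (limma adjusted p = 0.109) and 0.91 for Sgsh (adjusted p = 0.203). For Gla in aged minus young it was 0.77 (limma adjusted p = 0.0793), and none of the 12 genes that reached that filter passed in limma in any comparison. Acp5 did not reach it.

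Glb1, the beta-galactosidase, was at 7.13 and 5.78 RPM in labelled control and at 3.11 and 3.98 RPM in labelled deltaMG libraries (log2 fold change -0.72, limma adjusted p = 0.328 with the 1 RPM filter). Arsa, which acts on the myelin lipid sulfatide, was at 2.97 and 3.10 against 5.02 and 2.31 RPM. Manba, Fuca1, Galns, Smpd1, Ppt2, Mcoln1, Cln3 and the sialic acid exporter Slc17a5 ranged from 1.51 RPM for Ppt2 in aged replicate 2 to 12.5 RPM for Manba in labelled control replicate 1. Acp5, the lowest gene per kb in young libraries, was at 0, 0.164 and 0 RPM in young (0, 1 and 0 estimated reads) and at 0.470, 0.404 and 1.40 RPM in aged libraries (3, 4 and 11 reads). It was at 0.297 and 0 RPM in labelled control and at 0.119 and 0.289 RPM in labelled deltaMG libraries, too few reads for a comparison.

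Other lysosomal genes were examined by lists. Of 12 cathepsin and legumain genes 11 were tested, and 5 fell in the libraries labelled deltaMG (median -0.52), against 2.58% of all tested genes. In aged libraries limma called none, with 3 at an unadjusted p under 0.05, against 21.5% of all tested genes. The 5 were Ctsz, Ctsb, Ctss, Ctsl and Ctsd, the last named after its values were seen. Of 16 further hydrolases and lipid handlers 12 were tested, and 2 were called lower in the libraries labelled deltaMG, against 2.58% of all tested genes. The cholesterol carriers Npc2 and Npc1 fell by 2.21-fold and 1.6-fold (limma adjusted p = 0.00181 and 0.0439), while the acid lipase Lipa (-0.61, adjusted p = 0.0946) did not pass. Npc2 was at 155 and 121 RPM in labelled control, 54.5 and 69.4 RPM in labelled deltaMG and 47.1 to 58.8 RPM in young libraries.

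Of 21 further membrane proteins 14 were tested, with a median log2 fold change of -0.12 in labelled deltaMG minus labelled control. Limma called 2 lower in that comparison and 1 lower in ageing, against 2.58% and 2.99% of all tested genes. The transporter Mfsd1 fell 2.12-fold (limma adjusted p = 0.00169) and the tetraspanin Cd63 fell 2.95-fold (limma adjusted p = 0.00997), the latter having passed the filter only through the libraries labelled control. In aged libraries the sialomucin Cd164 fell 1.49-fold (limma adjusted p = 0.0159), and the amino acid transporter Slc36a1 did not pass (-0.45, adjusted p = 0.0900).

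Genes that deliver or mature lysosomal enzymes, and those that regulate lysosomal genes, held no limma call. At an unadjusted p under 0.05 the delivery genes had 2 in ageing and 0 for labelled deltaMG minus labelled control, and the regulators had 0 and 1. Over all tested genes the shares were 21.5% in ageing and 18.8% for labelled deltaMG minus labelled control. Of 12 delivery genes 6 were tested, with medians of -0.32 for labelled deltaMG minus labelled control and -0.14 for aged minus young. The smallest limma adjusted p was 0.138, for the phosphotransferase Gnptab in ageing, followed by 0.186 for Cln8 in ageing. For labelled deltaMG minus labelled control the sulfatase-activating enzyme Sumf1 had a log2 fold change of -0.41 (limma adjusted p = 0.280) and the mannose phosphate receptor M6pr of -0.41 (0.315). Of 11 regulators 6 were tested. Mitf had a log2 fold change of -0.57 (limma adjusted p = 0.229), Rragc of -0.47 (0.365) and Usf2 of -0.39 (0.409) in that comparison, and Tfe3 of -0.28 (0.330) in ageing. Tfeb was under the filter, with group means of 3.39 to 4.17 RPM.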

How the data were processed

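RNA from bead-purified microglia had been amplified (NuGEN Ovation V2) and made into Ion Xpress Plus libraries, per the labels' protocols. GRCm38, mm10 and FastQC are named in the submitters' processing notes; for the aligner, counter, annotation, strand setting and normalization, the sources used here give nothing. The deposited values were read as RPM from their single-read steps, and a constant of 0.0001 seen in every cell was subtracted. Single-read steps gave 6098305 to 9907857 reads a library, but 94.2 to 94.6% of values up to 500 reads lay within 0.05 of a whole read, so values were tested as log2(RPM + 1), a scale that understates changes of low genes. limma 3.58.1 (R 4.3.3, trend) was fitted to the 4151 genes that reached 10 RPM in 2 or more of the 10 libraries, 4 groups sharing 1 spread. The fit was also run on simulated counts with the same spread setting for every gene and no differences in cell content. That run cannot show how the fit holds for these libraries. P-values were adjusted by Benjamini-Hochberg over all 4151 genes and called under 0.05. The members and lists were chosen with earlier results of these data known. Values in every library are given for each called gene, for the gene with the smallest p in a class with no call, and for the highest and lowest gene per kb, and up to 4 genes are named from each other list. From those lists, 1 gene that the rule selects is not reported here. Positions and exon lengths are from GENCODE M21 (GRCm38), promoter windows from RefSeq (GRCm38.p6). Other scalings, filters, pseudocounts, a replicate block and left-out libraries were tried. Figures were drawn with matplotlib 3.10.9.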

Additional observations from a re-analysis of the deposited data

Results flagged for a closer look

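The change from labelled control to labelled deltaMG differed from the change from young to aged for 3 genes in a limma test of that difference. The difference of log2 fold changes was -1.14 for Gm2a, -1.01 for Lamp1 and -0.824 for Man2b1. In each, the 2 labelled control libraries were the highest of all 10. The aged minus young fold changes of these genes, 0.44, 0.15 and 0.13, were positive and did not pass the test.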

How the results depend on the processing

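With the replicate number as a block, 0 genes were called in aged minus young, 2 (Hexa and Lamp1) in labelled deltaMG minus labelled control and 1 in the difference of comparisons. Same-numbered libraries of the ageing groups correlated at -0.137, -0.244 and -0.392 in their deviations from group means, so the numbers were not taken to pair samples. In the labelled Rab7 groups, with 2 libraries each, both same-numbered pairs must give 1 value, here 0.116. That value cannot show whether the numbers pair samples, and no pairing was assumed there. The 1 ageing call became 2 with a pseudocount of 0.1, median-of-ratios scaling, quantile normalization, array weights or equal totals, and 0 with no filter. The 5 calls for labelled deltaMG became 2 with no filter, 3 with at least 50 RPM in 3 libraries, 3 with no trend and 9 with its own groups only, where 12.3% of all genes were called against 3.78%. The 3 calls for the difference became 6 with median-of-ratios scaling, 6 with the neutrophil covariate (10.9% of all genes, against 4.79%) and 5 with equal totals. Without 1 library at a time, the counts ran from 0 to 1, 0 to 5 and 1 to 3.

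Scaling to microglial markers, chosen after seeing the data like equal totals and voom, moved the median of all genes to 0.52 in ageing and 0.14 for labelled deltaMG. Under it the counts were 16, 2 and 10 of 24, where 57.1%, 2.48% and 8.79% of all genes were called, and Arsb turned to 0.055 in ageing. Ageing medians then were 0.48 over tested members, 0.61 for activators, 0.39 for glycan hydrolases, 0.59 for lipid hydrolases, 0.45 for membrane glycoproteins, 0.27 for transporters, 0.45 for peptidase and phosphatases and 0.38 for sulfatases. Those for labelled deltaMG were -0.19 over members, -0.47 for glycan hydrolases, -0.11 for membrane glycoproteins, -0.22 for peptidase and phosphatases and 0.040 for sulfatases. With at least 50 RPM in 3 libraries Man2b1 was the 1 glycan hydrolase tested, at 0.13 in ageing. The class median was -0.45 for labelled deltaMG with a pseudocount of 5. The causes were not tested.

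Without 1 library at a time, ageing medians ran from -0.11 to -0.01 over members and from -0.29 to 0.013 for glycan hydrolases. For labelled deltaMG they ran from -0.54 to -0.21 over members, -0.89 to -0.40 for glycan hydrolases, -0.43 to -0.071 for membrane glycoproteins, -0.25 to 0.51 for transporters, -0.60 to -0.15 for peptidase and phosphatases and -0.26 to 0.019 for sulfatases. Depth limits the 13 genes under the filter most.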
